A study of Homo sapiens with 12 samples.

Results

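The nuclear-encoded respiratory chain genes examined here are 85 genes of the human pancreatic cancer line SW1990. They were chosen by name and level: gene names in the table of experiment 1 that begin as subunits of complexes I to V do (NDUF, SDH, UQCR, COX and ATP5), with a mean of 50 or more counts over its 6 libraries. Of 256 matching names, 5 with a hyphen and 159 ending in P and digits, the usual form of pseudogene names, were set aside, and 7 of the 92 left were below the mean. The 85 genes are 85 of 58302 listed in experiment 1, and all 85 were found by gene identifier among the 50868 of experiment 2. They comprise 38 genes of complex I, 8 of complex II, 9 of complex III, 11 of complex IV and 19 of complex V. NDUFA4L2, at a mean of 56.2 counts, was the gene nearest above the minimum, and ATP5MGL, at 1.17, the nearest below. No count was recorded for 4 of the 7 genes left out, COX4I2, COX6A2, COX7A1 and COX7B2, which are isoforms used mainly in lung, muscle, heart or testis. All 85 genes passed the low-count filter in both experiments. The name rule also takes in proteins that are not core subunits: the assembly factors SDHAF1, SDHAF2, SDHAF3 and SDHAF4, the ATP synthase inhibitor ATP5IF1, the supercomplex factor COX7A2L, and NDUFA4, which is named for complex I but is a component of complex IV. Complexes were assigned by name alone, so NDUFA4 and its paralog NDUFA4L2 are counted under complex I.

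The respiratory chain passes electrons from NADH through complex I, and from succinate through complex II, to ubiquinone, then through complex III and cytochrome c to complex IV, which reduces oxygen. Complexes I, III and IV pump protons across the inner mitochondrial membrane, and complex V, the ATP synthase, uses the gradient to make ATP. All complexes but II combine subunits encoded in the nucleus with subunits encoded in mitochondrial DNA. Cells kept without glucose cannot make ATP from glucose by glycolysis and depend more on this chain.

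SW1990 is an established line from a spleen metastasis of a pancreatic adenocarcinoma. The cells expressed wild-type rPHGDH, rPHGDH S371A or rPHGDH S55A, forms of PHGDH, which catalyses the entry step of serine synthesis, and all 12 cultures were in DMEM without glucose for 24 h. The line was maintained in DMEM with 10% FBS, and the labels do not say whether the medium without glucose held serum. Experiment 1 holds 3 wild-type libraries (WT-1) and 3 S371A libraries, and experiment 2 holds 3 wild-type libraries (WT-2) and 3 S55A libraries. The labels do not say whether the lines were clones, whether the cells' own PHGDH was still present, or whether replicates were separate cultures, so p-values measure the spread between libraries, which may be technical. The series asks which transcripts differ between the wild-type and mutant forms under glucose deprivation. Because each mutant sits in its own experiment, mutant and experiment cannot be told apart.

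Total counts per library ran from 13667033 to 19240270, and the 85 genes took 0.413 to 0.456% of them in experiment 1 and 0.478 to 0.543% in experiment 2. The floor, 3 counts in a library, was 0.156 to 0.22 CPM and speaks to counting error alone, and the biological coefficient of variation was 13.5% and 13.8%. PHGDH was lower in both mutants, from 474 ± 19.6 CPM to 201 ± 20.7 in S371A (log2 fold change -1.24 ± 0.08, edgeR adjusted p = 0.000316) and from 726 ± 17.5 to 357 ± 9.13 in S55A (-1.03 ± 0.05, edgeR adjusted p = 7.18e-05). Mutant form and PHGDH level thus differ together in each comparison, and the part of either was not tested. The 6 epithelial markers summed to 2753 CPM or more in every library, the 8 leukocyte markers to at most 2.68, the 8 fibroblast markers to at most 27.1 and the 6 endothelial markers to at most 0.508. KRT18 rose in both mutants, EPCAM in S371A, KRT8 and MUC1 in S55A, and the fibroblast marker PDGFRB fell in S371A. In such bulk RNA, fewer cells of a type and less RNA per cell cannot be told apart.

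Levels are compared between genes as the deposited FPKM, which divides by gene length. In complex I the highest means over the 12 libraries were those of NDUFB7 at 59.3 FPKM and NDUFS5 at 51.0, both small accessory subunits, and the lowest was that of NDUFA4L2 at 0.499. In complex II the iron-sulfur subunit SDHB stood at 22.7 FPKM and the flavoprotein SDHA at 9.41. In complex III the hinge protein UQCRH stood at 35.9 and the core protein UQCRC1 at 30.0. In complex IV COX8A, the smallest subunit, stood at 108 FPKM and COX6A1 at 53.7. In complex V the catalytic beta subunit ATP5F1B stood at 58.9 and the central stalk gamma subunit ATP5F1C at 35.5. Subunits of the same complex thus differed widely in FPKM. The order depends on the lengths used, which run from 507 bases for COX8A to 18854 for the complex I subunit NDUFS7. How they were made is not given, and for NDUFS7 the length exceeds its 7533 exonic bases in GENCODE 29. The order is therefore one of FPKM and may not be that of transcript levels.

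Summed over its genes, complex I stood at 439 ± 9.32 FPKM in WT-1 and at 425 ± 11.8 in S371A, and at 476 ± 16.5 in WT-2 and at 438 ± 25.7 in S55A. Complex II summed to 61.8 ± 0.975 and 57.3 ± 1.10 FPKM in experiment 1, and to 70.2 ± 1.28 and 68.7 ± 3.57 in experiment 2. Complex III summed to 168 ± 3.68 and 155 ± 5.57 FPKM, and to 183 ± 5.90 and 173 ± 12.5. Complex IV summed to 254 ± 6.28 FPKM in WT-1 and at 242 ± 16.4 in S371A, against 365 ± 10.2 in WT-2 and at 380 ± 13.2 in S55A, the only complex whose sum was higher in a mutant. Complex V summed to 271 ± 9.29 and 253 ± 18.8 FPKM in experiment 1, and to 341 ± 4.75 and 301 ± 15.2 in experiment 2. No test was made on the sums.

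Few of the 85 genes passed the test in either mutant, and most that did fell. In S371A against WT-1, 1 gene rose (ATP5F1A) and 3 fell (NDUFA4L2, SDHC and ATP5S), 4.71% of the 85, where a call is an adjusted p below 0.05 in edgeR's quasi-likelihood test with Benjamini-Hochberg adjustment over all 16235 genes tested. Among all of these genes 12.6% were called, 7.05% higher and 5.53% lower. In S55A against WT-2, 0 genes rose and 7 fell (NDUFA2, SDHAF3, UQCRHL, COX6C, COX7B, ATP5IF1 and ATP5PO), 8.24% of the 85, while 16.0% of 15521 genes were called, 8.97% higher and 7.06% lower. At an unadjusted p below 0.05 in edgeR there were 16 of the 85 in S371A, beside 4776 of all 16235 genes. In S55A there were 22 of the 85, beside 4960 of all 15521. DESeq2 called 0 higher and 7 lower in S55A as well, but NDUFA2 was not among its 7. A log2 fold change beyond 1 in either direction was reached by 2 of the 85 in S371A, NDUFA4L2 and NDUFB4, beside 2.86% of all genes, and by 0 in S55A, beside 3.95%.

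Most genes that were not called had values slightly below 0. The median log2 fold change of the 85 genes was -0.10 in S371A and -0.11 in S55A, against -0.01 over all genes tested in each comparison. Below 0 were 63 of the 85 in S371A and 60 in S55A, or 74.1% and 70.6%, beside 51.4% and 51.3% of all genes. The 3 mutant libraries lay wholly below the 3 wild-type libraries for 20 genes in S371A and wholly above for 3, or 27.1% with groups apart against 36.5% of all genes. In S55A they lay wholly below for 24 and wholly above for 1, or 29.4% against 38.2%. Where groups did not overlap, the mutant was mostly below; over all genes it was below in 18.3% and above in 18.2% in S371A, and below in 18.7% and above in 19.5% in S55A. These are counts over co-regulated genes, not a test of the list.

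**Figure D1:**
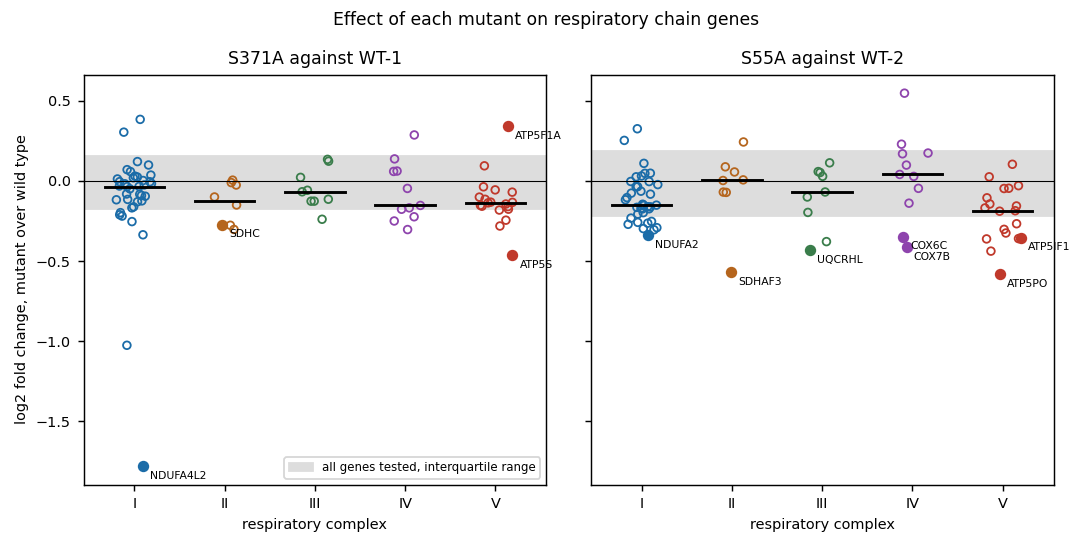
Log2 fold change of each of the 85 genes in S371A (left) and S55A (right), by complex; filled points are called genes, bars are medians of a complex, and the grey band is the interquartile range of all genes tested. Most points lie inside the band; NDUFA4L2, at -1.78 in S371A, is the farthest from 0, and complex V has its median below 0 in both panels, at -0.14 and -0.19.

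By complex, the median log2 fold change in S371A was -0.04 for complex I, -0.13 for II, -0.07 for III, -0.15 for IV and -0.14 for V. In S55A it was -0.15 for complex I, 0.00 for II, -0.07 for III, 0.04 for IV and -0.19 for V. The complex IV median in S371A was -0.03 without S371A replicate 3 and -0.05 with pseudogene counts added, and in S55A it was 0.14 with the length trend, 0.08 without S55A replicate 3, 0.09 without WT-2 replicate 1 and 0.08 without WT-2 replicate 2. Over all alternatives, the S55A median ran from -0.11 to 0.013 in complex III, highest without S55A replicate 3, and from -0.033 to 0.046 in complex II, so neither kept its sign. In complex V it ran from -0.17 to -0.099 in S371A and from -0.23 to -0.16 in S55A, and in complex I from -0.06 to -0.016 and from -0.17 to -0.093. Complex V was below 0 for 17 of 19 genes in each mutant, complex I for 26 of 38 in S371A and 31 of 38 in S55A, and complex IV for 7 of 11 in S371A and 4 of 11 in S55A. The libraries of a mutant did not contribute evenly. Relative to the wild-type mean, the median over the 85 genes was -0.04, -0.15 and -0.08 in S371A replicates 1 to 3 and -0.05, -0.05 and -0.20 in S55A replicates 1 to 3. The wild-type libraries lay between -0.02 and 0.03, above every mutant library. Without S371A replicate 2 the median of the 85 genes was -0.05, and without S55A replicate 3 it was also -0.05. Short genes moved the same way: over all tested genes under 1000 bases the library medians were -0.02, -0.07 and -0.10 in S371A and -0.09, -0.11 and -0.08 in S55A, and the part of gene length was tested only through a length trend, which left the median of the 85 genes at -0.07 and -0.10.

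**Figure D2:**
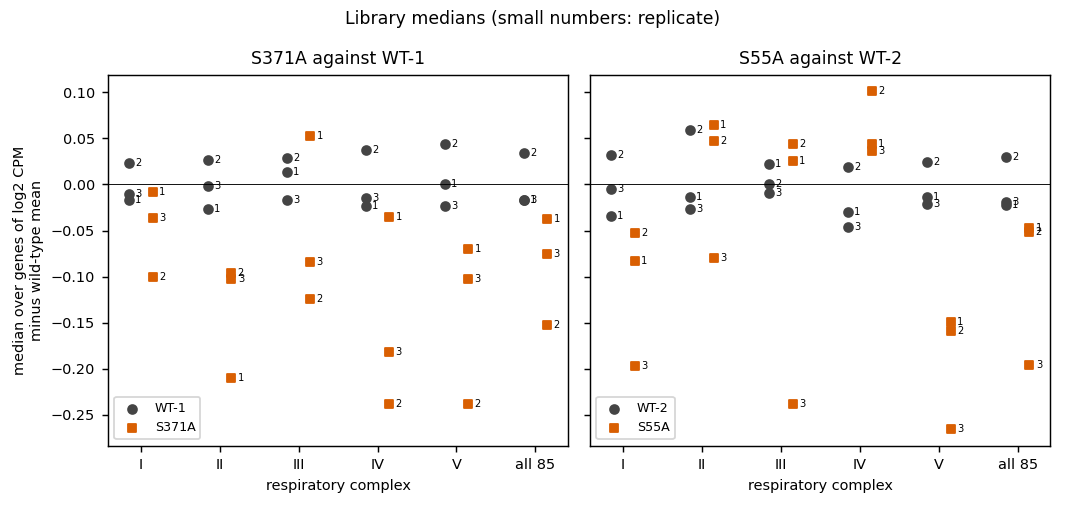
Median over genes of log2 CPM minus the wild-type mean, for each library (small number, replicate), by complex and over all 85 genes; circles are wild type and squares the mutant. S371A replicate 2 at -0.15 and S55A replicate 3 at -0.20 are lowest over all 85 genes; in complex IV the S55A libraries lie at or above 0.04, above all 3 wild-type libraries.

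Among the genes named for complex I, NADH dehydrogenase, 1 was called in each mutant. In S371A this was NDUFA4L2 (ENSG00000185633, chromosome 12, 57234903 to 57240715, GRCh38), a paralog of NDUFA4 known as a target of the hypoxia factor HIF1. Its level was 5.21, 5.38 and 4.56 CPM in WT-1 and at 1.84, 1.297 and 1.28 in S371A, and it was 2.53, 2.39 and 3.38 in WT-2 and at 2.18, 2.89 and 2.38 in S55A. The S371A libraries were thus well apart from WT-1, while S55A and WT-2 overlapped. The log2 fold change was -1.78 ± 0.18 in S371A (edgeR adjusted p = 0.00239), 0.291 of the WT-1 level, and -0.16 ± 0.22 in S55A (edgeR adjusted p = 0.667). The counts behind these values were small, 83 to 101 reads in WT-1 and at 20 to 26 in S371A. NDUFA4L2 thus met the minimum mean of 50 counts only through WT-1, the group where it was high. Its choice is therefore not independent of its fall in S371A. In experiment 2 its mean was 45.5 counts, below that minimum. No 50-base window of its transcripts occurred in another gene, and 1.18% of its exonic bases lie opposite another gene, SHMT2.

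NDUFA4, the paralog of NDUFA4L2 that is a component of complex IV, was measured at 34.9, 39.0 and 33.4 CPM in WT-1 and at 33.4, 25.4 and 33.5 in S371A. In experiment 2 it stood at 45.5, 49.1 and 61.5 in WT-2 and at 56.6, 51.4 and 53.2 in S55A. Neither comparison was called, with log2 fold changes of -0.22 ± 0.12 and 0.05 ± 0.11 (edgeR adjusted p = 0.28 and 0.816). The other gene of this family, C15orf48, which encodes a paralog that can replace NDUFA4 in complex IV and lies outside the name rule, was at 0.732, 1.45 and 0.948 CPM in WT-2 and at 11.5, 11.1 and 7.13 in S55A. All S55A libraries were above WT-2, and the log2 fold change was 3.26 ± 0.29 (edgeR adjusted p = 0.000646). In experiment 1 C15orf48 stood at 1.59 ± 0.286 CPM in WT-1 and at 1.49 ± 0.163 in S371A and was not called. Of its 50-base windows, 22.3% also occur in other genes, most of them in the overlapping AC025580.2. Within this family, therefore, S371A had a lower NDUFA4L2 and S55A a higher C15orf48, and NDUFA4 was called in neither.

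NDUFA2, an accessory subunit of complex I, was called in S55A. It stood at 16.9, 17.4 and 18.4 CPM in WT-2 and at 13.9, 14.02 and 13.7 in S55A, with no overlap; in log2 fold change this was -0.34 ± 0.09 (edgeR adjusted p = 0.043). This call did not survive the removal of any single library (adjusted p 0.073 to 0.136), nor 5 of 9 other settings, DESeq2 among them. In experiment 1 it was measured at 9.23, 8.63 and 7.35 CPM in WT-1 and at 7.93, 5.37 and 7.87 in S371A, which overlapped. Of its exonic bases, 13.0% lie opposite another gene, IK or TMCO6.

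Other complex I genes, some named after their values were seen, are given for their spread or size. NDUFB4, an accessory subunit, was at 9.49, 28.4 and 11.0 CPM in WT-1 and at 9.28, 6.86 and 7.81 in S371A. Its fold change of -1.03 ± 0.48 on the log2 scale rested largely on WT-1 replicate 2 and was not called (edgeR adjusted p = 0.231). NDUFB1, a small accessory subunit, had the next largest negative value in S371A, -0.34 ± 0.13 (edgeR adjusted p = 0.13). NDUFS6, an accessory subunit of the electron input module, had the largest positive value in S371A, 0.38 ± 0.16 (edgeR adjusted p = 0.18), and stood in S55A at -0.29 ± 0.14 (edgeR adjusted p = 0.191). Its levels in experiment 2 were 23.5, 32.6 and 22.8 CPM in WT-2, highest in replicate 2, and 21.2, 22.0 and 21.1 in S55A. The 2 genes highest by FPKM, NDUFB7 and NDUFS5, were not called in S371A: NDUFB7 went from 41.2 ± 0.861 to 40.2 ± 4.55 CPM and NDUFS5 from 29.7 ± 1.38 to 29.6 ± 2.25. In S55A NDUFS5 stood at 34.3, 31.7 and 27.0 CPM below 38.9, 38.1 and 37.2 in WT-2, a log2 fold change of -0.30 ± 0.10 that was not called (edgeR adjusted p = 0.0771). The flavoprotein NDUFV2, which binds an iron-sulfur cluster, had nearly the same value, at -0.30 ± 0.10 (edgeR adjusted p = 0.0752), but a wider spread in WT-2. It stood at 124, 150 and 113 CPM in WT-2 and at 106, 106 and 101 in S55A.

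**Figure D3:**
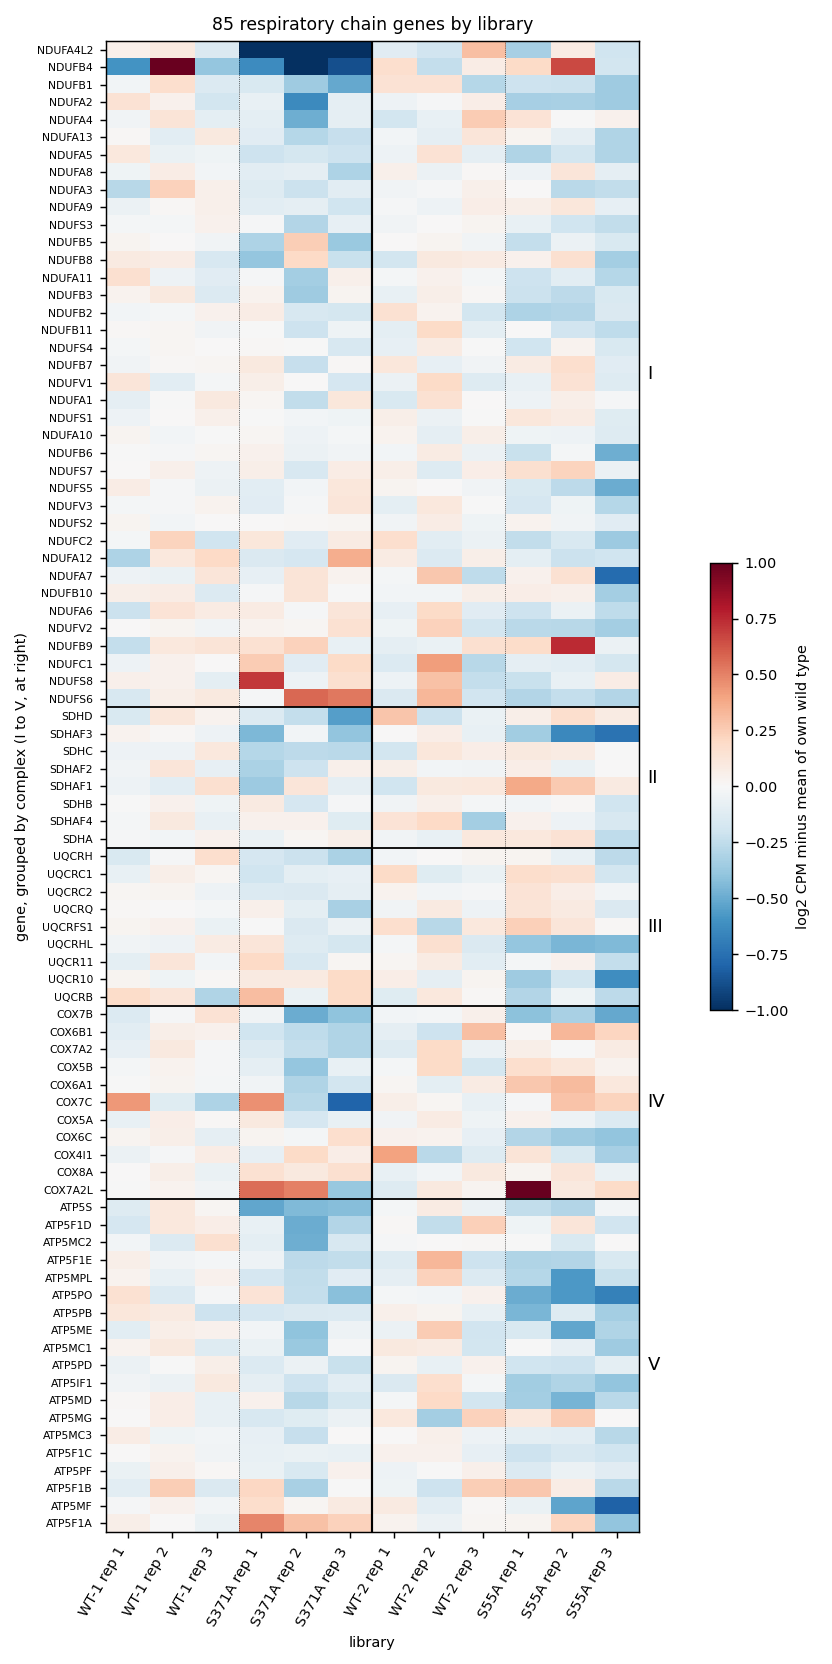
Log2 CPM of each of the 85 genes (rows, by complex and by S371A effect) minus the mean of its own wild-type group, in the 12 libraries (columns); colours are cut at -1 and 1. The blue column of S55A replicate 3 and the blue NDUFA4L2 row in S371A stand out, as do single libraries of NDUFB4, COX7C and COX7A2L.

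Complex II, succinate dehydrogenase, also belongs to the tricarboxylic acid cycle and has 4 subunits, SDHA to SDHD, all encoded in the nucleus. SDHC (ENSG00000143252, chromosome 1, 161314257 to 161375340), a membrane anchor that helps to bind haem and ubiquinone, was measured at 116, 116 and 130 CPM in WT-1 and at 99.0, 101 and 100 in S371A. The groups did not overlap and the log2 fold change was -0.27 ± 0.06 (edgeR adjusted p = 0.0227). Its call was lost without any of the S371A replicates or WT-1 replicate 3 (adjusted p 0.0511 to 0.0644). In experiment 2 it stood at 122, 150 and 145 CPM in WT-2 and at 148, 147 and 138 in S55A, which overlapped. The catalytic subunit SDHA was at 136 ± 3.64 CPM in WT-1 and at 136 ± 5.88 in S371A, and the log2 fold change was 0.00 ± 0.05. The iron-sulfur subunit SDHB was at 67.0 ± 1.91 and 65.8 ± 5.75 CPM. In S55A neither was called, at 0.01 ± 0.11 and -0.07 ± 0.07. The other anchor, SDHD, stood at -0.30 ± 0.12 in S371A (edgeR adjusted p = 0.154), but reads of pseudogenes named after it made up 36.1% of the summed counts in experiment 1.

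SDHAF3, an assembly factor for the iron-sulfur subunit of complex II, fell in S55A. It stood at 12.3, 12.8 and 11.7 CPM in WT-2 and at 9.65, 7.86 and 7.34 in S55A, all below WT-2. The log2 fold change was -0.57 ± 0.14 (edgeR adjusted p = 0.0259). Only leaving out S55A replicate 1 kept the call, and without any other library the adjusted p ran from 0.0574 to 0.0849. In S371A it was at 8.71, 11.7 and 9.08 CPM beside 11.5 to 12.2 in WT-1, an overlap set by S371A replicate 2, with -0.28 ± 0.13 (edgeR adjusted p = 0.201). The other 3 assembly factors of the name rule, SDHAF1, SDHAF2 and SDHAF4, were not called in either mutant.

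Complex III, the cytochrome bc1 complex, had no called gene in S371A and 1 in S55A. UQCRHL, an intronless copy of the hinge protein gene UQCRH on chromosome 1 (15807169 to 15809348), stood at 27.8, 31.4 and 25.5 CPM in WT-2 and at 21.5, 20.5 and 20.7 in S55A. The groups did not overlap, and the log2 fold change was -0.43 ± 0.10 (edgeR adjusted p = 0.0208). Leaving out S55A replicate 1 or 2 or WT-2 replicate 1 or 2 ended the call (adjusted p 0.0548 to 0.0703). Its source gene UQCRH stood at 73.4 ± 1.42 CPM in WT-2 and at 68.4 ± 6.83 in S55A, -0.10 ± 0.08, and was not called (edgeR adjusted p = 0.449). Since 7.65% of the 50-base windows of UQCRHL also occur in UQCRH, reads of the 2 genes may have been split. In S371A UQCRHL stood at -0.06 ± 0.10 and UQCRH at -0.24 ± 0.09 (edgeR adjusted p = 0.737 and 0.116).

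UQCR10, a small subunit of complex III, was called in neither mutant alone. It was at 27.2, 25.8 and 26.9 CPM in WT-1 and at 28.4, 28.4 and 30.4 in S371A, so all S371A libraries were above WT-1. In experiment 2 it was at 30.8, 27.7 and 30.1 CPM in WT-2 and at 23.0, 26.0 and 19.2 in S55A, all below WT-2. The log2 fold changes were 0.12 ± 0.06 (edgeR adjusted p = 0.248) and -0.38 ± 0.12 (edgeR adjusted p = 0.0639). The core protein UQCRC1 stood at 170 ± 8.14 CPM in WT-1 and at 156 ± 6.48 in S371A, -0.13 ± 0.05 (edgeR adjusted p = 0.165), and at 195 ± 22.9 and 202 ± 27.1 in experiment 2.

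Complex IV, cytochrome c oxidase, had no called gene in S371A and 2 in S55A, both small structural subunits. COX7B (ENSG00000131174, chromosome X, 77899438 to 77907373) stood at 37.1, 37.3 and 39.3 CPM in WT-2 and at 28.5, 30.3 and 26.6 in S55A, with no overlap. Its log2 fold change was -0.41 ± 0.08 (edgeR adjusted p = 0.0128), and the call held in each of the 6 fits without a library (adjusted p 0.026 to 0.0474). In S371A it was at 33.6, 24.5 and 26.1 CPM beside 31.4, 34.3 and 38.2 in WT-1. There S371A replicate 1 overlapped WT-1 and the log2 fold change was -0.30 ± 0.13 (edgeR adjusted p = 0.188). COX6C was at 58.1, 57.7 and 53.1 CPM in WT-2 and at 46.0, 43.9 and 42.7 in S55A, also with no overlap, and its log2 fold change was -0.35 ± 0.07 (edgeR adjusted p = 0.0163). That call was lost without S55A replicate 2 (adjusted p 0.0589) or WT-2 replicate 1 (0.0674). In experiment 1 COX6C was at 44.1, 45.1 and 40.8 CPM in WT-1 and at 44.1, 42.7 and 48.6 in S371A, which overlapped.

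COX6A1, the isoform of subunit VIa found in most tissues, was higher than wild type in all S55A libraries without a call. It stood at 119, 110 and 124 CPM in WT-2 and at 141, 146 and 126 in S55A, with a log2 fold change of 0.23 ± 0.08 that was not called (edgeR adjusted p = 0.0799). In experiment 1 it was at 66.4, 67.9 and 65.8 CPM in WT-1 and at 65.1, 54.2 and 58.8 in S371A, all below WT-1, at -0.17 ± 0.07 (edgeR adjusted p = 0.168). Its pseudogenes held 38.6% of the summed counts in experiment 1 and 12.5% in experiment 2, and with them added the log2 fold changes were -0.03 and 0.19.

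Among complex IV subunits with tissue isoforms, the restricted forms COX4I2, COX6A2, COX7A1 and COX7B2 had no count in experiment 1. The widely expressed forms COX4I1, COX6A1 and COX7A2 were called in neither mutant, though COX6A1 was called in the difference of the mutant effects. COX7B, the widely expressed form beside COX7B2, was called lower in S55A, as given above. COX4I1, the common form of subunit IV, was at 72.2 ± 3.33 CPM in WT-1 and at 75.3 ± 7.08 in S371A, and at 87.5 ± 22.4 in WT-2 and at 79.6 ± 13.0 in S55A. COX6B1, which faces cytochrome c, was measured at 39.6, 44.2 and 43.8 CPM in WT-1 and at 37.0, 35.6 and 34.5 in S371A, all below WT-1, with -0.25 ± 0.07 (edgeR adjusted p = 0.0517). It passed under 3 settings, with 1 CPM in 3 libraries as the filter, with no low-count filter and with upper quartile factors (adjusted p 0.0372 to 0.0497). COX7A2, the common form of subunit VIIa, stood at -0.22 ± 0.07 in S371A (edgeR adjusted p = 0.09) and 0.04 ± 0.10 in S55A. COX8A was at 36.0 ± 1.61 CPM in WT-1 and at 39.6 ± 0.895 in S371A, all libraries above WT-1, at 0.14 ± 0.06 (edgeR adjusted p = 0.173). COX6B2 and COX8C, testis forms, had means of 0.833 and 0.5 counts.

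COX7A2L, which takes part in joining complexes III and IV into supercomplexes, was uneven between libraries. It was measured at 73.6, 75.8 and 72.3 CPM in WT-1 and at 109, 105 and 56.8 in S371A. In experiment 2 it stood at 64.1, 75.0 and 71.1 in WT-2 and at 152, 75.0 and 79.9 in S55A. S371A replicates 1 and 2 and S55A replicate 1 were above the rest, and neither comparison was called, with 0.29 ± 0.26 and 0.55 ± 0.30 (edgeR adjusted p = 0.525 and 0.286). Without S371A replicate 3 the log2 fold change was 0.53 and passed the test (edgeR adjusted p = 0.0058). COX7C, a small subunit named after its values were seen, spread in both groups of experiment 1, at 44.0, 29.9 and 26.3 CPM in WT-1 and at 44.8, 26.9 and 18.7 in S371A. In experiment 2 its 6 libraries lay between 80.6 and 103 CPM.

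Complex V, the ATP synthase, had called genes in both mutants and the lowest median in S55A. The gene with the smallest p among the 85 in S55A was ATP5PO (ENSG00000241837, chromosome 21, 33903453 to 33915980), which encodes the oligomycin sensitivity subunit that ties the catalytic head to the peripheral stalk. It stood at 87.8, 87.4 and 91.9 CPM in WT-2 and at 63.2, 59.6 and 55.9 in S55A, far apart relative to the spread within groups. The log2 fold change was -0.58 ± 0.07 (edgeR adjusted p = 0.00173), 0.669 of the WT-2 level, and the call held in each fit without a library (adjusted p 0.0041 to 0.0104). In experiment 1 it was at 45.6, 37.3 and 40.8 CPM in WT-1 and at 45.2, 34.8 and 30.8 in S371A, which overlapped (-0.16 ± 0.15, edgeR adjusted p = 0.542). Of its 50-base windows, 21.1% also occur in other genes, most in AP000311.1, which overlaps it on the same strand.

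ATP5IF1, which inhibits ATP hydrolysis by complex V when the proton gradient fails, fell in S55A. It was at 58.9, 73.2 and 64.2 CPM in WT-2 and at 51.2, 52.9 and 49.6 in S55A, with no overlap. The log2 fold change was -0.35 ± 0.09 (edgeR adjusted p = 0.0321), and the call remained only without WT-2 replicate 1 (adjusted p 0.0691 to 0.092 without any other library). In S371A it stood at 75.2, 69.6 and 74.7 CPM, below 78.1, 77.1 and 85.6 in WT-1, at -0.13 ± 0.06 (edgeR adjusted p = 0.185). The peripheral stalk subunit ATP5PB, named after its values were seen, stood in S55A at -0.30 ± 0.09 (edgeR adjusted p = 0.0537).

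In S371A, ATP5F1A (chromosome 18, 46080248 to 46104334), the alpha subunit of the catalytic head, was the gene that rose. Its level was 200, 192 and 183 CPM in WT-1 and at 269, 234 and 225 in S371A, with no overlap; in log2 fold change this was 0.34 ± 0.07 (edgeR adjusted p = 0.0277). Without S371A replicate 2 or any WT-1 library the call was lost (adjusted p 0.0577 to 0.0926). In experiment 2 it was at 401, 376 and 397 CPM in WT-2 and at 399, 454 and 298 in S55A, which overlapped. Its catalytic partner, the beta subunit ATP5F1B, was at 231, 294 and 225 CPM in WT-1 and at 286, 198 and 247 in S371A, also overlapping, at -0.04 ± 0.17. The gamma subunit ATP5F1C was at 124 ± 2.95 CPM in WT-1 and at 118 ± 0.426 in S371A, and at 150 ± 7.41 in WT-2 and at 132 ± 2.31 in S55A, below wild type in every library of both mutants but called in neither (edgeR adjusted p = 0.287 and 0.0693).

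ATP5S, also known as coupling factor B, fell in S371A. It was measured at 25.5, 30.1 and 28.4 CPM in WT-1 and at 19.5, 20.6 and 20.8 in S371A; in log2 fold change this was -0.46 ± 0.08 (edgeR adjusted p = 0.015) with no overlap. The call was lost without WT-1 replicate 2 (adjusted p 0.0509) or WT-1 replicate 3 (0.0548). In S55A it stood at 17.6, 17.1 and 20.6 CPM beside 20.7, 22.2 and 20.1 in WT-2, at -0.19 ± 0.10 (edgeR adjusted p = 0.263). Of its exonic bases, 20.1% lie opposite other genes, among them CDKL1. The 3 genes for the ring subunit c, ATP5MC1, ATP5MC2 and ATP5MC3, which encode the same mature protein, had log2 fold changes of -0.14, -0.25 and -0.10 in S371A and -0.14, -0.05 and -0.16 in S55A, none called.

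**Figure D4:**
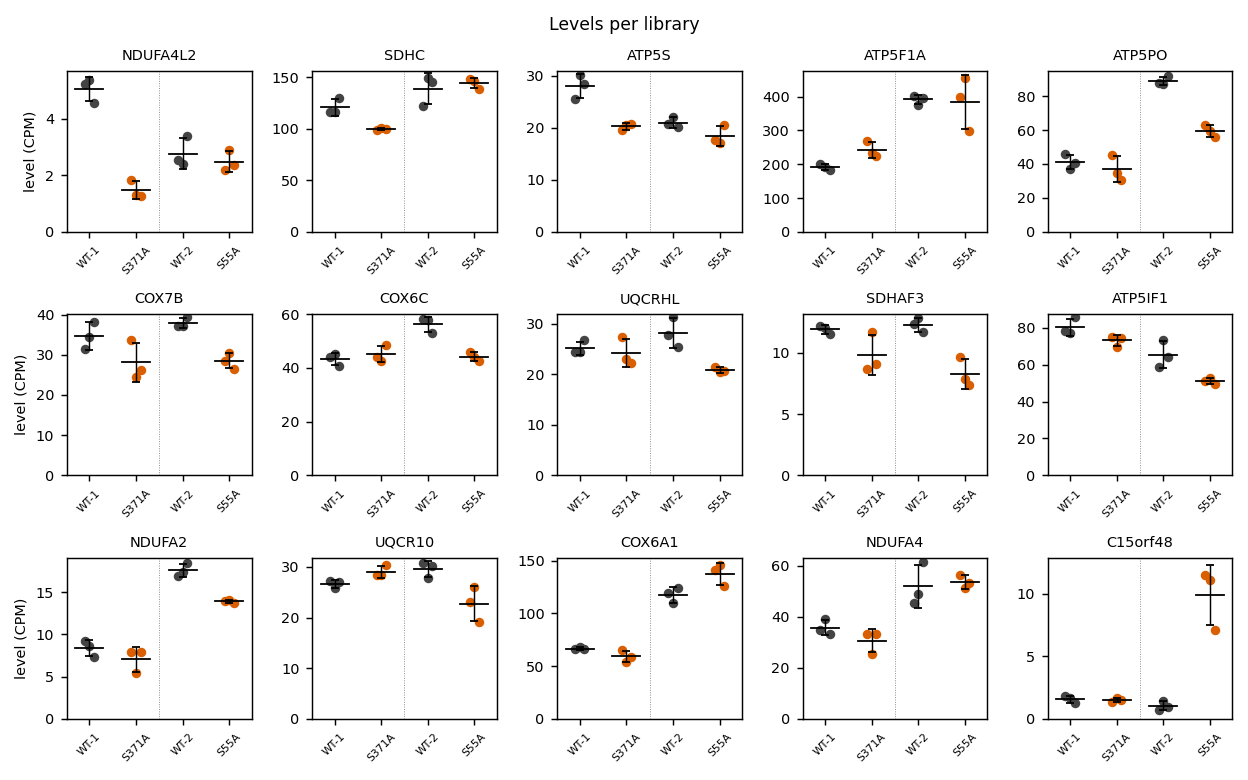
Level in CPM of the 13 genes called in a comparison or in the difference, and of NDUFA4 and C15orf48, in each library (points), with mean and SD over 3 libraries (bars); wild type is grey and the mutant orange. NDUFA4L2 is separated in experiment 1, at 5.05 CPM in WT-1 and at 1.47 in S371A, and ATP5PO in experiment 2, at 89.0 in WT-2 and at 59.5 in S55A.

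The genes called under every setting and without any library were NDUFA4L2 in S371A, chosen only through its WT-1 counts, and ATP5PO and COX7B in S55A. The reference windows of ATP5PO and COX7B, from 250 bases before to 50 after the gene start in RefSeq (GRCh38.p14), are shown, while NDUFA4L2 had no such window. In the window of COX7B (chrX:77899218-77899517, plus strand), the capitals mark TATAAA, matched once on each strand in overlapping letters that begin 138 and 136 bases before the start. In the window of ATP5PO (chr21:33915755-33916054, minus strand), the capitals mark the NRF1 motif (GCGC, any base, TGCGC), beginning 24 bases before the start, and the YY1 motif AAGATGG, beginning 39 bases after it.
COX7B: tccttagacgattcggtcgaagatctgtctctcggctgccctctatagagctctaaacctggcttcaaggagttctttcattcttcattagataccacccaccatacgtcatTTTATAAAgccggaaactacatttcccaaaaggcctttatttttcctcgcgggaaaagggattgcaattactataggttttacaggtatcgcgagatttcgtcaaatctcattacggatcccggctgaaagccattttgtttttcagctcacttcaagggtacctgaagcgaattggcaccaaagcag
ATP5PO: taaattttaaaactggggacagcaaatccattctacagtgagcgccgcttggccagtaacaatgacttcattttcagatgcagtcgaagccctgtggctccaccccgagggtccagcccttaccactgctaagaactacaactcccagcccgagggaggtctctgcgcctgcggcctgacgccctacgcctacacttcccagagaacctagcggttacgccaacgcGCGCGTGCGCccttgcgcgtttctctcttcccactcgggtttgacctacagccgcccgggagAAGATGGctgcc

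NRF1, the ETS factor GABP and YY1 are known regulators of nuclear genes for the respiratory chain. Of the 85 genes, 67 had a window in the RefSeq table, and NDUFA4L2 is not among them. The NRF1 motif (GCGC, any base, TGCGC) was found on either strand in 25.4% of these, against 6.28% of all 27305 windows. The ETS motif CCGGAAG was in 31.3% against 10.7%, and the YY1 motif AAGATGG in 23.9% against 6.06%. The E-box CACGTG was in 10.4% against 7.43%, TATAAA in 8.96% against 12% and the AP-1 motif TGACTCA in 0% against 4.92%. By complex, the NRF1 motif was in 6 windows of complex I, 4 of II, 4 of III, 0 of IV and 3 of V. The HIF core letters ACGTG and GCGTG, added after the fall of NDUFA4L2 was seen, were in 28.4% against 21.6% and 47.8% against 36.3%, and the GCGTG match in ATP5PO lies within its NRF1 match. ACGTG is also part of the E-box. Such matches describe letters, not binding.

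Whether the 2 mutants act alike on a gene was tested as the difference of their effects over all 12 libraries. Of the 85 genes, 4 were called (4.71%), beside 12.5% of 16666 genes tested: 2 higher in S371A relative to S55A, beside 6.43% of all genes, and 2 lower, beside 6.1%. A difference beyond 1 on the log2 scale was found for NDUFA4L2 and NDUFB4, 2 of the 85, beside 8.31% of all genes. NDUFA4L2 was lower in S371A relative to S55A by a log2 difference of -1.61 ± 0.28 (edgeR adjusted p = 0.00377), and the call held in all 12 fits without a library. NDUFA4L2 met the count minimum only through WT-1, so its choice is not independent of this difference. COX6C had a difference of 0.41 ± 0.10 (edgeR adjusted p = 0.0187), being called lower in S55A and not called in S371A, and this call was lost without WT-1 replicate 3 or WT-2 replicate 1 (adjusted p 0.0596 and 0.0566). UQCR10 had a difference of 0.51 ± 0.14 and COX6A1 one of -0.39 ± 0.11 (edgeR adjusted p = 0.0357 and 0.0374). These 2 kept their call in 3 of the 12 fits. UQCR10 kept it without S55A replicate 2, S55A replicate 3 or WT-2 replicate 2, and COX6A1 without S371A replicate 1, S55A replicate 3 or WT-2 replicate 3. The other genes called in 1 mutant were not shown to differ between the mutants: the difference was 0.42 ± 0.17 for ATP5PO (edgeR adjusted p = 0.136), 0.38 ± 0.18 for ATP5F1A (0.21), -0.32 ± 0.11 for SDHC (0.0657) and 0.11 ± 0.16 for COX7B (0.721).

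**Figure D5:**
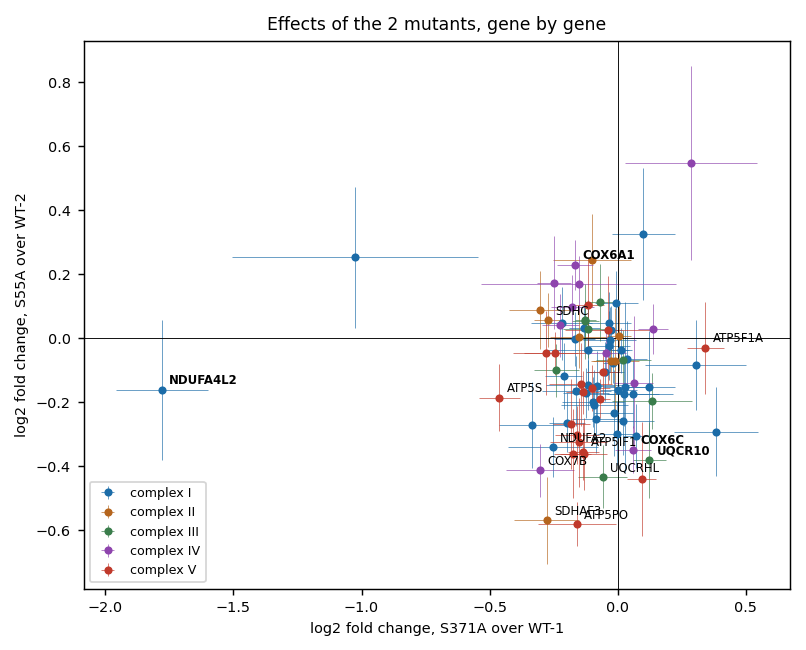
Log2 fold change of each of the 85 genes in S371A (horizontal) and S55A (vertical) with standard errors, coloured by complex; genes called in a comparison are labelled, and those called in the difference are in bold. The cloud has no slope (Pearson -0.004), and 42 genes lie below 0 on both axes.

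Gene by gene, the 2 effects had no common order. Over the 85 genes Pearson's r was -0.004 and Spearman's rho -0.03, as a description across genes, which are not independent, while over 15126 genes tested in both comparisons they were 0.17 and 0.16. The 2 comparisons share no library. Below 0 in both mutants were 42 genes, in S371A alone 21, in S55A alone 18, and 4 were above 0 in both. In complex V, 15 of 19 were below 0 in both, and in complex III 2 of 9.

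Lists of genes around the chain were counted in the same way. The 13 subunits encoded in mitochondrial DNA had a median log2 fold change of 0.20 in S371A, beside -0.10 for the 85 nuclear genes. Of the 13, 2 were below 0, MT-CO1 among them (-0.15 ± 0.05, edgeR adjusted p = 0.0714). Their summed levels overlapped, at 50566 to 57771 CPM in WT-1 and at 54069 to 66637 in S371A. Called was 1 of 13, or 7.69%, beside 12.6% of all genes. MT-CYB, the cytochrome b of complex III, rose from 1770 ± 142 to 2338 ± 236 CPM (0.40 ± 0.09, edgeR adjusted p = 0.0327). MT-ATP6, a complex V subunit, was at 748, 879 and 962 CPM in WT-1 and at 2764, 776 and 3566 in S371A, high in 2 of 3 libraries and not called (edgeR adjusted p = 0.168). In S55A 0 of 13 were called, beside 16.0% of all genes, and the median was -0.07. At an unadjusted p below 0.05 in edgeR there were 5 of 13 in S371A, beside 4776 of all 16235 genes. In S55A there was 1 of 13, beside 4960 of all 15521. Cytochrome c, the carrier between complexes III and IV encoded by CYCS, fell in S55A from 185 ± 22.0 to 142 ± 7.88 CPM (-0.38 ± 0.09, edgeR adjusted p = 0.0258).

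The called assembly factors were all lower. Of 17 complex I factors, TMEM126B fell in S371A (-0.30 ± 0.07, edgeR adjusted p = 0.0392) and NDUFAF7 in S55A (-0.47 ± 0.10, edgeR adjusted p = 0.0168). Among the factors for complexes II to V, a list that shares SDHAF1 to SDHAF4 with the 85 genes, LYRM7, which aids the Rieske protein of complex III, fell in both mutants (-0.31 ± 0.06 and -0.27 ± 0.08, edgeR adjusted p = 0.0213 and 0.0488). COA4, a complex IV factor, fell in S371A (-0.24 ± 0.06, edgeR adjusted p = 0.0388), and the other call of this list in S55A was SDHAF3. Counted over the list, 2 of 35 fell in S371A and 2 of 34 in S55A, or 5.71% and 5.88%, and in the complex I list 1 of 17 fell in each, or 5.88%, beside 5.53% and 7.06% lower among all genes.

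Of 18 tested regulators of mitochondrial biogenesis, 5.56% were called in S371A and 11.1% in S55A, beside 12.6% and 16.0% of all genes. LRPPRC, which stabilises mitochondrial transcripts, fell in S371A from 739 ± 15.7 to 590 ± 18.6 CPM (-0.32 ± 0.04, edgeR adjusted p = 0.00461). In S55A LRPPRC was also below WT-2 in every library, at -0.14 ± 0.05, but was not called (edgeR adjusted p = 0.117). PPARGC1A, the coactivator PGC-1alpha, rose in S55A from 2.13 ± 0.256 to 4.96 ± 0.737 CPM (1.22 ± 0.19, edgeR adjusted p = 0.00534), and POLG2, the accessory subunit of the mitochondrial DNA polymerase, fell (-0.66 ± 0.17, edgeR adjusted p = 0.0344). In S371A PPARGC1A was above WT-1 in every library, at 0.68 ± 0.20, and POLG2 stood at 0.18 ± 0.21. Neither was called there (edgeR adjusted p = 0.0706 and 0.629). Of 19 genes of the tricarboxylic acid cycle and its feeder enzymes, PC, pyruvate carboxylase, fell in S371A (-0.35 ± 0.07, edgeR adjusted p = 0.0249). In S55A SUCLA2, a subunit of succinyl-CoA synthetase, fell (-0.31 ± 0.06, edgeR adjusted p = 0.0102). Called in S371A was 1 of these 19, or 5.26%, beside 12.6% of all genes. In S55A 1 of the 19 fell, beside 7.06% lower among all genes. Of 78 mitochondrial ribosomal proteins, 1 fell in S371A (MRPS33) and 8 fell in S55A, led by MRPL16 (-0.49 ± 0.08, edgeR adjusted p = 0.00598), with 0 rising. These are 1.28% and 10.3% of the list, beside 12.6% and 16.0% called in either direction and 5.53% and 7.06% lower among all genes. Their medians, -0.07 and -0.11, were close to those of the 85 genes.

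Reads shared with copies or overlapping genes limit some of these values. On GENCODE 29, 32 of the 85 genes share 10% or more of their 50-base windows with another gene. For 16 of the 85, 10% or more of the exonic bases lie opposite another gene. For 15 of the 85, 10% or more are shared with a gene on the same strand. Whether counting used strand is not given in the sources used here. Named pseudogenes held 10% or more of the summed counts for COX6A1, SDHD, SDHA, UQCRFS1 and NDUFV2 in both experiments. Of the genes called, SDHAF3 and ATP5IF1 shared no window, like NDUFA4L2, and COX7B shared 2.64%.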

How the data were processed

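RNA of 12 SW1990 libraries was measured, in 4 groups of 3. The authors deposited whole-number counts per gene together with FPKM, and on testing the files the FPKM equal count over gene length and library total. Named in the submitters' processing notes, with no role given, are edgeR, HISAT2 2.0.4, StringTie 1.3.0, CASAVA, GRCh38 and mm10. Of the counting step, the annotation release and the use of strand, nothing is given in the sources used here. The tables share 50356 genes by identifier, and 18 of the 85 genes have an older name in experiment 2.

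The test was edgeR 4.0.16 (R 4.3.3) on the counts, with filterByExpr, TMM factors, a robust quasi-likelihood F test and Benjamini-Hochberg adjustment over all genes at 0.05, each mutant against its own wild type and as the difference of the effects over 12 libraries. CPM values use TMM-scaled totals. Values after ± are SD over 3 libraries for levels and SE for fold changes, derived from the F statistic. The lengths used to order FPKM are those implied by count and FPKM. The fit was tested on simulated data.

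The genes, lists and tests were chosen with earlier results of these data known. Genes were named if called in a comparison or in the difference, among the 2 highest by FPKM of a complex, in isoform families, nearest the count minimum, or among up to 3 called genes of each surrounding list; others are said to have been named after their values were seen. As alternatives, DESeq2 1.42.0, upper quartile and RLE factors, other filters, a length trend, the replicate block, added pseudogene counts and each library left out were run. Promoter windows came from RefSeq (GRCh38.p14), and windows of 50 bases from GENCODE 29. 1 gene of a surrounding list is not reported here.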

Additional observations from a re-analysis of the deposited data

Results flagged for a closer look

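Each of these 4 genes stood out because the effects of the mutants differed in the test of the difference itself over 12 libraries (S371A effect minus S55A effect, log2). NDUFA4L2, the HIF1 target related to NDUFA4, had -1.61 (edgeR adjusted p = 0.00377). It met the count minimum only through WT-1, so its choice is not independent of this value. UQCR10, a small complex III subunit, had 0.51 (edgeR adjusted p = 0.0357). COX6A1 of complex IV had -0.39 (edgeR adjusted p = 0.0374), with pseudogene reads at 38.6% of the summed counts in experiment 1 and 12.5% in experiment 2, whose part was not tested in the difference. COX6C of complex IV had 0.41 (edgeR adjusted p = 0.0187). Mutant and experiment cannot be told apart in any of them.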

How the results depend on the processing

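NDUFA4L2 in S371A and in the difference, and ATP5PO and COX7B in S55A, kept direction and call under every alternative run. For NDUFA4L2 this is no independent support, since it met the count minimum only through WT-1. Leaving out 1 library gave 0 to 2 genes of the set higher in S371A, 0 to 1 higher and 3 to 5 lower in S55A, and 0 to 2 higher and 1 to 4 lower in the difference. All genes called then ran from 917 to 1576 in S371A and from 1344 to 2491 in S55A. The median of the 85 genes in S371A ran from -0.11 to -0.046. Upper quartile factors moved the median of all genes by less than 0.1.

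Same-numbered libraries did not deviate together (correlations from -0.0851 to -0.0029 over the 2 comparisons), so the numbers give no pairing. With the replicate block all the same, 784 genes were called in S371A and 1632 in S55A (820 and 1625 with the length trend), 4 genes of the set were lower in S55A (3 with the length trend), and the difference gave 0 higher, 1 lower and 1098 in all. The block ended the calls of SDHC in S371A and of NDUFA2, UQCRHL and ATP5IF1 in S55A.

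Uncalled values near 0 changed sign. SDHA in S371A was -0.017 with the length trend, -0.020 with no filter or upper quartile factors and -0.018 with block and length trend. SDHA in S55A was -0.021 with the length trend, -0.018 with upper quartile factors, -0.059 with pseudogenes added, -0.0019 with the block and -0.030 with block and length trend. With the length trend, NDUFB7 was 0.023 (0.018 with the block), NDUFS5 0.057 (0.055) and SDHB 0.0094 (0.0072) in S371A. Over the fits without 1 library, S371A values ran from -0.17 to 0.096 for ATP5F1B, -0.0079 to 0.13 for COX4I1, -0.10 to 0.053 for NDUFB7, -0.065 to 0.043 for NDUFS5, -0.022 to 0.039 for SDHA and -0.084 to 0.040 for SDHB. S55A values ran from -0.17 to 0.13 for ATP5F1A, -0.099 to 0.16 for ATP5F1B, -0.072 to 0.0039 for ATP5MC2, -0.27 to 0.092 for COX4I1, -0.022 to 0.14 for COX7A2, -0.019 to 0.082 for COX8A, -0.038 to 0.19 for NDUFA4, -0.28 to 0.011 for NDUFA4L2, -0.011 to 0.13 for NDUFB7, -0.065 to 0.13 for SDHA, -0.027 to 0.11 for SDHC and -0.0066 to 0.16 for UQCRC1. The difference ran from -0.047 to 0.19 for COX7B and -0.013 to 0.24 for NDUFA2. The cause was not tested. Genes near the count minimum, NDUFA4L2 foremost, are limited by depth.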
